A study of Mus musculus with 3 samples.

Results

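Thymocytes, the T cells that develop in the thymus, of the β-catenin transgenic genotype were compared with wild type thymocytes on whole-transcript expression arrays. The comparison covers the 19105 autosomal genes among the 19938 genes that have a probe set with a single annotated symbol. For each gene the probe set with the highest mean over the 3 arrays of the series was taken, and the difference is the log2 value of the transgenic array minus that of the wild type array. The wild type array was made from thymocytes at 12 weeks of age and the transgenic array from thymocytes at 16 weeks. Another array, from TCF-1-/- thymocytes at 8 weeks, is given beside them as a value. The tissue of all 3 is labelled thymocytes, strained from the organ without a stated sort or gate. The promoter that drives the transgene, the form of β-catenin it encodes, the strain and the number of mice behind each RNA are not stated in the labels.

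Each genotype has 1 array. No difference has a replicate check, no error or p-value is given, and precision is limited by the number of arrays. A gene is called higher or lower by a rule of size alone, a log2 difference of at least 1, which is 2-fold. A looser rule of 1.5-fold is used to describe gene groups.

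β-Catenin is a protein of cell junctions that also carries the Wnt signal. Without a Wnt signal a complex built on Axin and APC marks it for degradation, and with one it accumulates, enters the nucleus and acts with DNA-binding factors of the TCF and LEF family. In the thymus this pathway is known for its part in early thymocyte expansion and in the CD4+CD8+ double-positive stage, at which the T cell receptor is completed and most cells die. The design text of the series states an interest in genes that the β-catenin and TCF-1 pathway may control, and in thymocyte development and cell death. The transgenic comparison supplies the genes that are higher with the transgene.

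The arrays were first set against their labels. Thymocyte markers were high on both: Rag1, which cuts DNA in V(D)J recombination, was at 13.04 on the wild type and 13.13 on the transgenic array. Cd8a, a chain of the CD8 co-receptor, was at 12.93 and 12.97. Of 11 thymocyte markers, 7 were higher and 4 lower on the transgenic array, and the difference farthest from 0 was in Ptcra, the pre-T cell receptor α chain (8.91 against 8.37). The values of Ctnnb1, the β-catenin gene, were 11.15 on the wild type, 11.39 on the transgenic and 11.16 on the TCF-1-deficient array. Whether its probes match the transgene is not stated, so this difference of 0.24 does not check the label. Xist, the transcript of the inactive X chromosome, was at 12.49 on the wild type and 4.86 on the transgenic array. Uty, on the Y chromosome, was at 4.20 and 8.81. These values differ the way female and male samples do. Genotype, age and sex therefore cannot be told apart in this comparison, and genes of chromosomes X and Y were left out of it.

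The 2 arrays were close. By the 2-fold rule 26 genes were higher on the transgenic array, 0.136% of all genes compared, and 18 were lower, 0.0942%. At 1.5-fold, 93 genes were higher (0.487%) and 128 lower (0.67%). Centring of the arrays on their medians over all 35556 probe sets adds 0.079 to every difference. It changed these numbers to 33 and 15 at 2-fold, and to 131 and 83 at 1.5-fold. The balance of higher and lower genes at 1.5-fold thus turned with this centring. Over autosomal genes alone the medians were already alike, at 6.896 on both arrays. A block of 6617 unnamed probe sets, outside the comparison, had a median difference of -0.29. Over the genes compared the median difference was 0, and all but the outer 1% on each side lay between -0.53 and 0.43. The deposited values of 52.9% of genes were identical on both arrays, 78.0% of the 4820 genes lowest in level and 23.3% of the 4776 highest, so a difference of 0 is not a measured equality. Of the 4820 lowest 16.3% were higher and 5.66% lower, and of the 4776 highest 35.0% and 41.7%. The shares of all genes set beside each list below are therefore not matched to the list in level.

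**Figure D1:**
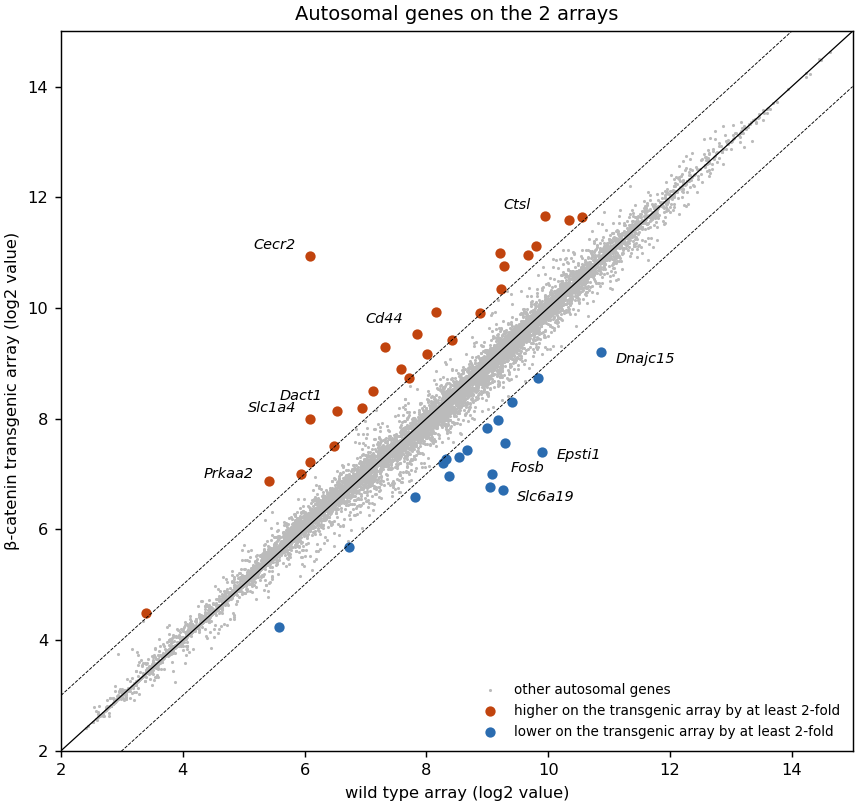
Deposited log2 value of each of 19105 autosomal genes on the wild type array (x axis) and the transgenic array (y axis), 1 array each. The solid line marks equal values and the dashed lines 2-fold; 26 genes lie above the upper dashed line, with Cecr2 farthest out, and 18 below the lower one.

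The genes beyond 2-fold are given by what their products do, with each gene's value on the wild type, transgenic and TCF-1-deficient array in that order. Cecr2, a bromodomain protein that works with an ISWI-type chromatin remodeller, was at 6.10, 10.94 and 5.37. It was high on the transgenic array alone, by 4.85 or 28.8-fold over wild type. Its wild type value lay under the median level over genes (6.90), which leaves the fold uncertain in size. Among 38 measured genes of ISWI and bromodomain remodelling, no other was beyond 2-fold, and 1 other, Chd3, a helicase of the NuRD complex, was lower at 1.5-fold (-0.59), and within 1.5-fold with the arrays centred. The median of these 38 was 0, as over all genes. The genes beside Cecr2 on chromosome 6 did not share its difference in size. Hdhd5 on one side differed by -0.16 and Slc25a18 on the other by 0.15, and the next gene, Atp6v1e1, a subunit of the vacuolar proton pump, was at 9.13 and 9.93 (0.79).

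Genes of the cell surface and the extracellular matrix formed the most numerous group among the higher genes that share a list. Cd44, the hyaluronan receptor and a Wnt readout in other tissues, was at 7.85, 9.54 and 6.95. Lamc1, the γ1 chain of laminins, was at 8.02, 9.17 and 6.93. Smoc1, a secreted calcium-binding matrix protein, was at 9.23, 10.34 and 6.51. Each was highest on the transgenic and lowest on the TCF-1-deficient array, and the transgenic array exceeded wild type by 1.68, 1.16 and 1.12. Of 35 matrix, laminin and integrin genes, 3 were higher by 2-fold and 5 by 1.5-fold (14.3%, against 0.487% of all genes). At 1.5-fold 1 was lower (2.86%, against 0.67%), and none with the arrays centred, and the list's median was 0. The other two higher genes were Fn1, fibronectin (5.95 and 6.92), and Itgam, the integrin αM chain of myeloid cells (6.84 and 7.81). The lower gene was Itgae, the integrin chain that binds E-cadherin (7.67 and 7.04). As Fn1 and Itgam are also markers of fibroblasts and of myeloid cells, those lists are given below.

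Several enzymes and transporters were higher. Ctsl, the lysosomal protease cathepsin L, was at 9.95, 11.66 and 8.17. The transgenic array was the highest of the 3, by 1.71 or 3.26-fold over wild type. No other of 19 cathepsins and lysosomal proteases was beyond 1.5-fold, and Ctsb, cathepsin B, differed by 0.15. Papss2, which makes the activated sulfate that sulfotransferases use, was at 9.66, 10.96 and 6.77. Of 23 genes of sulfate activation and transfer, Papss2 (1.29) and the sulfotransferase Chst2 (0.66) were higher at 1.5-fold, and Chst15, a chondroitin sulfotransferase, was lower (-0.68). Fbp1, a gluconeogenic enzyme, was at 6.48, 7.51 and 10.81, and so was highest without TCF-1. It was the 1 of 21 glycolysis and gluconeogenesis genes beyond 1.5-fold, and Eno3, an enolase, was the next (-0.53).

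Amino acid transporters held 1 gene well above wild type and the gene farthest below it. Slc1a4, a carrier of alanine, serine and cysteine, was at 6.10, 8.00 and 6.56. Slc6a19, a sodium-dependent carrier of neutral amino acids best known from gut and kidney, was at 9.26, 6.71 and 5.52. Against wild type the transgenic array differed by 1.90 for the first and by -2.54 (5.84-fold) for the second, which was lower on both mutant arrays. Slc43a1, a carrier of large neutral amino acids, was higher by 0.66. The other 25 of the 28 measured were within 1.5-fold, and the list's median of -0.0049 became 0.074 with the arrays centred.

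Among signalling genes, Ptpn14, a tyrosine phosphatase, was at 9.20, 10.99 and 11.12, and Il12rb2, a chain of the interleukin-12 receptor, was at 8.89, 9.91 and 10.38. For both, wild type was the lowest of the 3 arrays. Prkaa2, a catalytic subunit of the energy sensor AMPK, was at 5.41, 6.87 and 6.45. Plpp3, a lipid phosphatase, was at 5.94, 6.997 and 7.58. These neighbours on chromosome 4 were higher than wild type by 1.46 and 1.05, from values under the median level over genes. Camk1g, a calmodulin-dependent kinase, was at 7.12, 8.49 and 7.30, the 1 of 18 genes of calmodulin-dependent kinase signalling beyond 1.5-fold. Phlda1, a pleckstrin-homology protein linked to apoptosis, was at 8.42, 9.43 and 9.35. Ndrg3, of the NDRG family, was at 10.34, 11.59 and 9.44.

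Regulators of RNA and transcription were also among the higher genes. Esrp2, a splicing factor typical of epithelium, was at 8.15, 9.93 and 7.01 (1.78 over wild type). Mn1, a transcriptional co-regulator, was at 6.94, 8.19 and 7.51. Mixl1, a homeobox gene of early embryos, was at 6.08, 7.22 and 6.47, and Tmcc3, a membrane protein, was at 7.71, 8.74 and 7.56. The transgenic array was the highest of the 3 for each of these 4. The small RNA genes Scarna13 (1.49) and Snora44 (1.33) and the olfactory receptor gene Olfr767 (1.31) were higher too, and Sprr2b, a gene of cornified epithelium, was at 3.40, 4.49 and 4.49. The levels of Sprr2b are near the bottom of the range of the arrays, and its values on both mutant arrays were alike.

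H2-Q2, a class I MHC gene, was at 10.56, 11.64 and 9.54. Its relatives can share signal with it, so the value is uncertain. It was the 1 of 22 class I and antigen presentation genes beyond 1.5-fold; H2-Bl (0.48) and H2-Q4 (0.34) came next. The median of this list was -0.0034, and 0.076 with the arrays centred. The genes closest to the 2-fold rule from inside were Phlda1 (1.01), Fbp1 (1.02), Il12rb2 (1.03) and Tmcc3 (1.03). From outside they were Zfp831 (-0.995), Plod2 (0.98), Nav2 (0.98) and Fn1 (0.98).

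**Figure D2:**
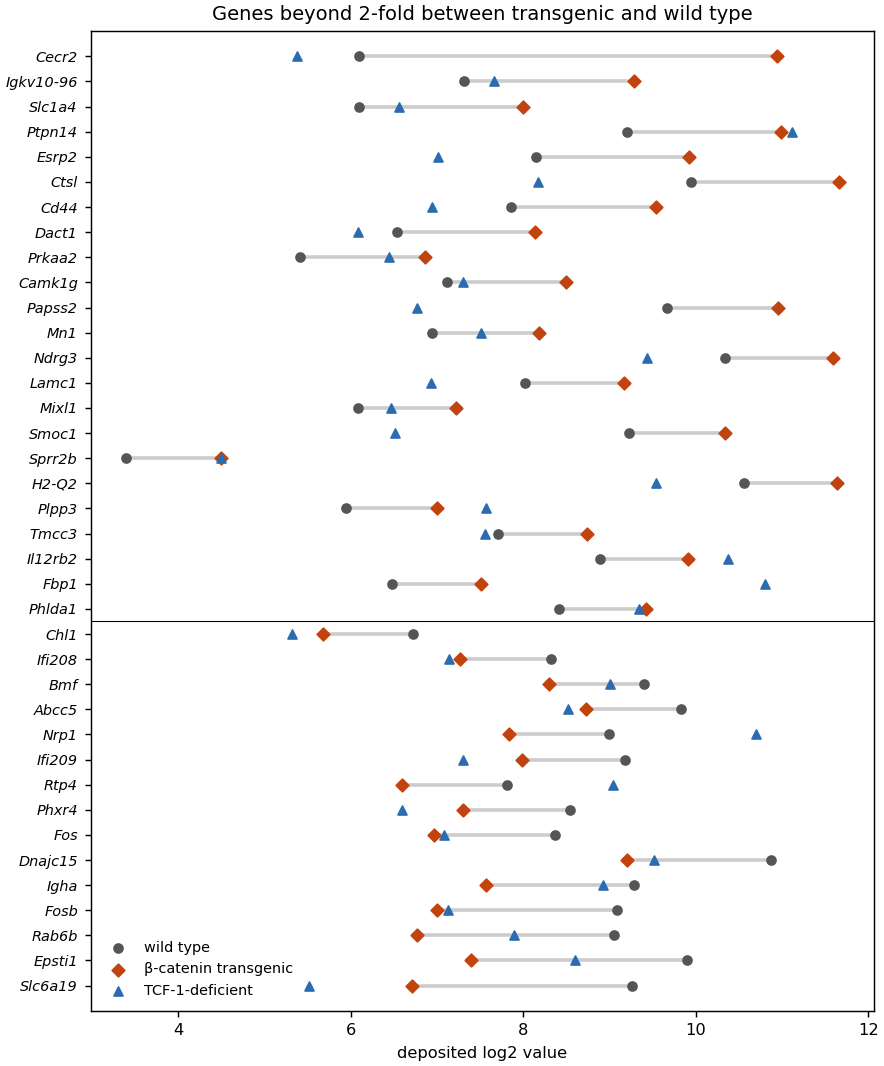
Deposited log2 value (x axis) on the wild type, transgenic and TCF-1-deficient array, 1 array each, of the 23 higher (above the line) and 15 lower genes beyond 2-fold between transgenic and wild type. Small RNAs, an olfactory receptor and a clone name are left out; the grey bar spans the 2 arrays compared, and it is longest for Cecr2 and, among the lower genes, for Slc6a19.

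The lower genes included immediate early genes, which cells switch on within minutes of a signal and also during tissue handling. Fosb was at 9.08, 6.996 and 7.13 and Fos at 8.37, 6.96 and 7.08. Both encode partners in the AP-1 transcription factor, and both were high on the wild type array alone, with transgenic differences of -2.09 and -1.40. Jun, the other AP-1 partner, was at 9.09, 8.21 and 8.34. Dusp1, a phosphatase of MAP kinases, was at 10.65, 9.85 and 9.83. Nr4a1, a nuclear receptor induced by T cell receptor signals, was at 10.45, 9.68 and 9.22. Rgs2, a regulator of G protein signalling, was at 9.68, 8.92 and 8.47, and Gadd45b, a stress gene, was at 7.75, 7.07 and 6.98. In all 7, wild type was the highest of the 3 arrays, and both mutant arrays are compared with that same array. Of 29 such genes, 2 were lower by 2-fold and 7 by 1.5-fold (24.1%, against 0.67% of all genes), none was higher by 1.5-fold, and the median was -0.17. With the arrays centred, 7 were lower by 1.5-fold and the median was -0.087.

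Genes induced through the T cell receptor share several of these members. Of 27, 18 were lower and 4 higher (66.7% and 14.8%, against 22.3% and 24.8% of all genes), and the median was -0.086. By 1.5-fold 3 were lower (11.1%, against 0.67% of all genes). With the arrays centred 2 were lower by 1.5-fold and the median was -0.0074. Besides Nr4a1 the 3 were Ikzf2, the transcription factor Helios (10.03 and 9.26), and Nr4a2, a relative of Nr4a1 (8.15 and 7.50). Cd5, a surface protein that tracks the strength of that signal, was at 11.64 and 11.26. The receptor complex and its nearest kinases and adaptors split evenly, with 10 of 22 higher and 10 lower. Cd2, an adhesion receptor, was the farthest of them from 0 (-0.47).

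Interferon-stimulated genes were lower as a group by small amounts. Epsti1, an interferon-induced gene, was at 9.90, 7.40 and 8.61, a transgenic difference of -2.50 (5.67-fold lower). Rtp4, another, was at 7.81, 6.59 and 9.04, lowest on the transgenic and highest on the TCF-1-deficient array. Ifit1 (7.58 and 6.85) and Xaf1 (7.22 and 6.58) were lower at 1.5-fold, and Slfn5, a Schlafen gene, was higher (8.31 and 9.03). Of 41 measured, 33 were lower and 2 higher (80.5% and 4.88%), against 22.3% and 24.8% of all genes. Of the 41, 2 were lower by 2-fold, against 0.0942% of all genes, and 4 by 1.5-fold (9.76%, against 0.67%). The median was -0.27, against 0 over all genes. With the arrays centred, 28 were lower and 13 higher, 3 were lower by 1.5-fold, and the median was -0.19. Centring adds 0.079, so it counts as higher any gene that was identical (6 of the 41) or lower by less than that. Dnajc15, a mitochondrial co-chaperone, lies next to Epsti1 on chromosome 14 and was at 10.87, 9.20 and 9.52. It differed from wild type by -1.67, while Fam216b, on the other side of Epsti1, was identical on both arrays, and Tnfsf11 beyond it differed by -0.11. Of 30 heat-shock and chaperone genes, Dnajc15 was lower and Dnajb4 (10.12 and 10.87) higher at 1.5-fold, and the median was 0.

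A run of interferon-inducible genes on chromosome 1 was lower together. These genes encode proteins of the p200 family, which bind DNA and take part in innate sensing and growth control. Ifi209 was at 9.18, 7.98 and 7.30, and Ifi208 at 8.32, 7.27 and 7.14. Ifi213 (7.55 and 6.68), Ifi214 (6.72 and 5.79) and Ifi206 (7.40 and 6.81) differed by -0.87, -0.93 and -0.59. The 5 genes follow each other in the order Ifi206, Ifi214, Ifi213, Ifi209, Ifi208, and on each the wild type array was the highest of the 3. Of the genes next in line, Aim2, a sensor of the same family, differed by -0.20, Ifi207 was identical and Ifi203 differed by -0.49. The run was picked out after its values were seen, and the genes are close copies, so their probe sets can share signal.

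The likeness of these genes can be seen in the RefSeq promoter windows (GRCm38.p6), which run from 250 bases before to 50 after each start. Windows of 4 of them are shown because they fall into look-alike pairs. Capitals mark the core of the interferon response element, a pair of GAAA repeats with any 2 bases (NN) between them, searched on both strands. The coordinates are chr1:173673415-173673714 (plus strand) for Ifi208, chr1:173599223-173599522 (minus) for Ifi213, chr1:173630609-173630908 (plus) for Ifi209 and chr1:173535908-173536207 (minus) for Ifi214.
Ifi208: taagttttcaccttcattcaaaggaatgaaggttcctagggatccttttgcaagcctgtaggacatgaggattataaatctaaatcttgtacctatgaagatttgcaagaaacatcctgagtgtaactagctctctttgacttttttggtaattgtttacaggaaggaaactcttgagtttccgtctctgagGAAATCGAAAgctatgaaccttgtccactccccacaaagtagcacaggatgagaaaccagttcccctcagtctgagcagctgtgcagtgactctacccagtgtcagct
Ifi213: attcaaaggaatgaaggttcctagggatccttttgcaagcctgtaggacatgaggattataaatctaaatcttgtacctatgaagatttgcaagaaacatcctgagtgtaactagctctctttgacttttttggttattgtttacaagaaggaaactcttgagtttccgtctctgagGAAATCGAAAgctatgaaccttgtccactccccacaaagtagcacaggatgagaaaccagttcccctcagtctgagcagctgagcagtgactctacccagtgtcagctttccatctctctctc
Ifi209: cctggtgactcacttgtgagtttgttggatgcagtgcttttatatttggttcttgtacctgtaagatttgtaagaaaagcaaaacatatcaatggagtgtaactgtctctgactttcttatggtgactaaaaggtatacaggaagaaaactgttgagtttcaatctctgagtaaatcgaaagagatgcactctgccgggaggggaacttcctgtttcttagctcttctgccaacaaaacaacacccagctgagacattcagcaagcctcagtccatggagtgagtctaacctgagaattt
Ifi214: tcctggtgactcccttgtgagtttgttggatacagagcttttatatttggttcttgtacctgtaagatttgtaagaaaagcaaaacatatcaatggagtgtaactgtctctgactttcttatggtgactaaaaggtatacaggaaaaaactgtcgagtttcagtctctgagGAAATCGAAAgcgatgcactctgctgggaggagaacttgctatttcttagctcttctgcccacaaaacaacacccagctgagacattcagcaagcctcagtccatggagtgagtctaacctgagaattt
Identity was taken over all columns of an alignment, ends without a partner included. Ifi208 and Ifi213 had 282 identical bases (89.5%), and Ifi209 and Ifi214 had 287 (95.3%). The windows of Ifi208 and Ifi213 are offset, which lowers their percentage, so the 2 percentages do not rank the pairs. Counted the same way, identity across these pairs was between 57.5% and 58.1%. The element is in 4 of the 5 windows, all but that of Ifi209, and in 3.44% of all 32851 windows. The core TCAAAG, the letters that TCF and LEF factors are known to bind, was searched the same way. It is in 16.0% of all windows. The 16 genes higher by 2-fold that have a window hold 23, and it is in 2 of these (8.70%), both of Tmcc3. The 14 such lower genes hold 16 windows, and it is in 5 (31.25%), those of Abcc5, Chl1, Dnajc15, Ifi208 and Phxr4. A match is a description of the letters and not a binding site.

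**Figure D3:**
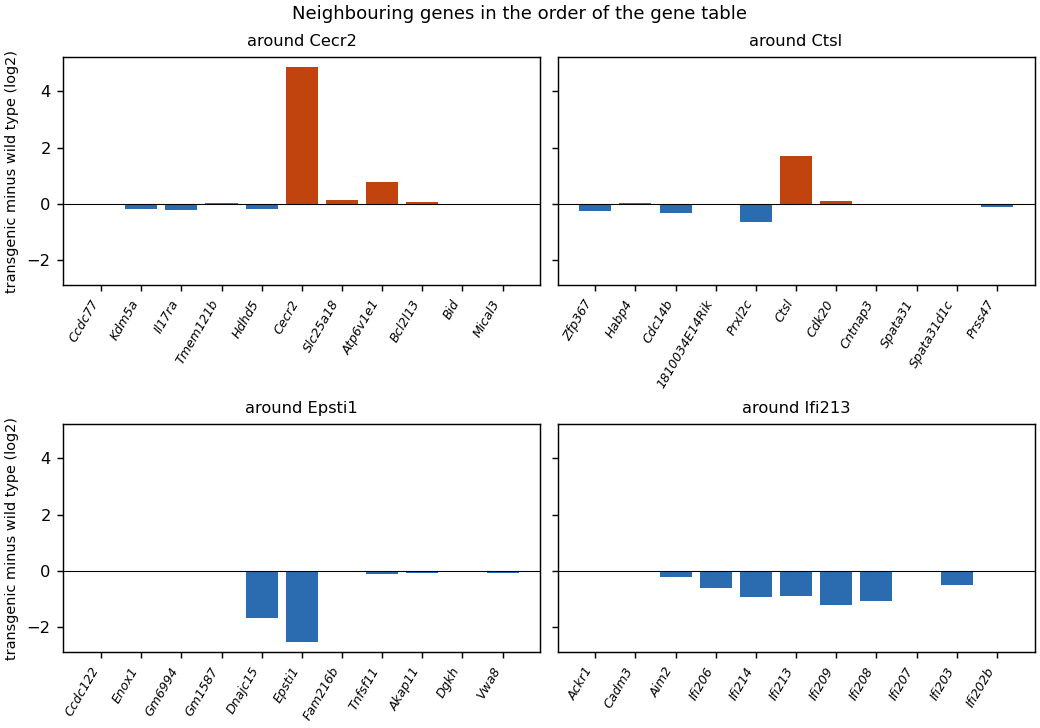
Difference, transgenic minus wild type (log2, y axis, 1 array each), of the genes around Cecr2, Ctsl, Epsti1 and Ifi213, in the order of the gene table, with up to 5 genes on each side. Cecr2 and Ctsl stand above their neighbours, Epsti1 is lower with Dnajc15, and the 5 genes from Ifi206 to Ifi208 are all lower.

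Neighbours were then counted over all autosomes, with those described above included. Among the 221 genes beyond 1.5-fold, 13 pairs were adjacent in the gene table, and 12 of these pairs differed in the same direction. They include the pairs in the run from Ifi206 to Ifi208, Dnajc15 with Epsti1, and Prkaa2 with Plpp3. Related genes that can share signal, such as Snora73a with Snora73b, are also counted. The 13 pairs hold 23 genes, 10.4% of the 221, while 2.28% of all genes lay beside a gene beyond 1.5-fold. Centring left 12 such pairs. The pairs were counted after the values were seen. On chromosome 19 the pairs were Pcgf5, a Polycomb component, with Hectd2 (-0.74 and -0.92), and Atrnl1 with Gfra1, a receptor for GDNF (-0.62 and -0.78). The pair that differed in opposite directions was Prxl2c (-0.65) and Ctsl (1.71) on chromosome 13. Chromosome 1 had 2.23% of its genes beyond 1.5-fold and chromosome 15 had 0.402%.

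MicroRNA precursors, chosen after their values were seen, were another group whose members beyond 1.5-fold were lower. MicroRNAs are short RNAs that repress messages matching their seed, bases 2 to 8. Of 257 microRNA genes 12 were lower by 1.5-fold, 4.67% against 0.67% of all genes, and none was higher. By any amount, 54 of the 257 were higher and 39 lower (21.0% and 15.2%, against 24.8% and 22.3% of all genes). The other 164 were identical on both arrays, and the median was 0, so the group as a whole was not lower. Centring left 7 of the 257 lower by 1.5-fold (2.72%). Mir181a-1 was at 8.66, 7.44 and 5.25, and Mir181b-1, its neighbour on chromosome 1, at 11.64, 10.87 and 8.08. Both were highest on the wild type and lowest on the TCF-1-deficient array, with transgenic differences of -1.22 and -0.77. Mir142, a microRNA gene of blood cells, was at 9.63, 8.68 and 7.23, and Mir30e at 7.44, 6.60 and 5.70. The mature forms, from RefSeq (GRCm38.p6), are shown with seeds in capitals, because the miR-181 products share one.
miR-181a-5p: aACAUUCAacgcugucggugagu
miR-181b-5p: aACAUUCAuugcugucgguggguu
miR-142a-3p: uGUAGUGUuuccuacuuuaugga
miR-30e-5p: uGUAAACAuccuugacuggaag
miR-128-3p: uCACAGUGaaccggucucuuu
The seed ACAUUCA is that of all miR-181 5p products, which are known in thymocytes for raising sensitivity to T cell receptor signals. Their other genes were nearer to wild type. On chromosome 2, Mir181b-2 differed by -0.52 and Mir181a-2 by -0.45, and on chromosome 8, Mir181c differed by -0.13 and Mir181d by 0. Mir128-1 (7.11 and 6.48) and Mir128-2 (7.44 and 6.84) lie on different chromosomes and give the same mature miR-128-3p, and both were just beyond the 1.5-fold rule. The other lower genes were Mir103-2, Mir350, Mir687, Mir15b, Mir340 and Mir186, with differences from -0.72 to -0.61.

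**Figure D4:**
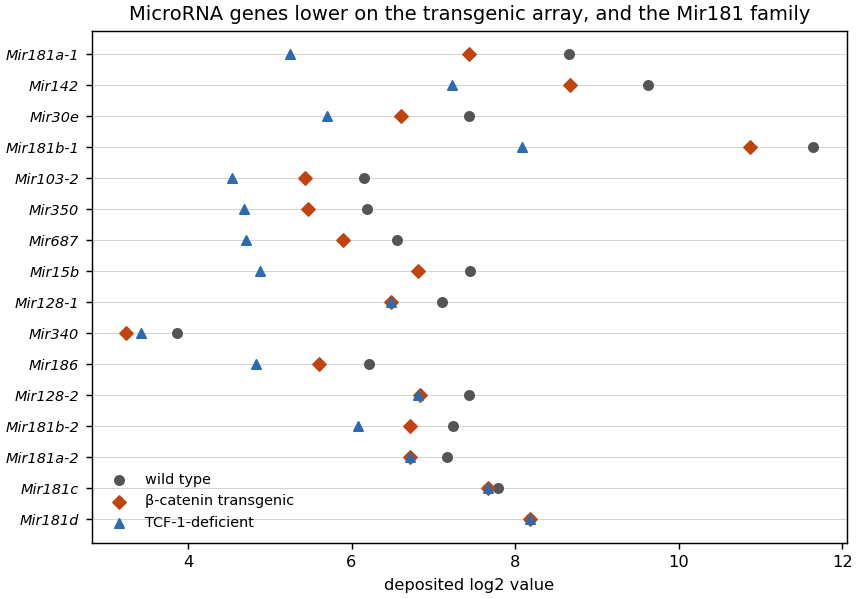
Deposited log2 value (x axis) on the wild type, transgenic and TCF-1-deficient array, 1 array each, of the 12 microRNA genes lower by 1.5-fold on the transgenic array than on wild type and of the other Mir181 genes. On each of the 12 the wild type value is the highest of the 3, and Mir181c and Mir181d lie within 0.13 of it.

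A shift in unnamed probe sets moved the same way as the microRNA genes lower by 1.5-fold. The 6617 probe sets whose identifiers come before that of the first named one had medians of 6.89, 6.44 and 5.96, and 13.3% of them were lower by 2-fold on the transgenic array. Their median difference was -0.29, against 0 over the named probe sets. Its part in the microRNA result and in the small negative medians of gene lists was not tested. Among 50 small nucleolar RNA genes, 5 were higher (10%, against 0.487% of all genes) and 4 lower (8%, against 0.67%) by 1.5-fold. Centring changed these to 7 and 3. Among 656 long noncoding RNA genes 1 was higher (0.152%, against 0.487%) and 7 lower (1.07%, against 0.67%) by 1.5-fold. With the arrays centred 1 was higher and 4 lower. Phxr4, a long noncoding RNA gene, was at 8.54, 7.31 and 6.60, and Snord58b, a small nucleolar RNA gene, differed by -1.34.

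The remaining lower genes beyond 2-fold have separate roles. Rab6b, a Rab GTPase of Golgi traffic, was at 9.05, 6.77 and 7.89, a transgenic difference of -2.28, and no other of 38 Rab genes was beyond 1.5-fold. Nrp1, the receptor neuropilin-1 found on thymus-derived regulatory T cells, was at 8.99, 7.84 and 10.70. Abcc5, an export pump, was at 9.83, 8.73 and 8.52, and Chl1, a neural adhesion molecule, at 6.72, 5.68 and 5.33. The clone 1700109H08Rik differed by -1.08. Igha, the constant region of IgA, was at 9.29, 7.57 and 8.93, but its second probe set differed by -0.53.

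Genes of the Wnt pathway itself differed little, with a few exceptions. The readouts, genes that the pathway induces in other cells, had a median of 0 over 32, with 13 higher and 6 lower. Cd44 was 1 of them, and Jun was the 1 lower by 1.5-fold (-0.88). Axin2, the feedback scaffold of the degradation complex, was at 8.23, 8.60 and 9.22, so that both mutant arrays were above wild type. Lef1, the relative of TCF-1, was at 11.92, 11.65 and 12.46, and Myc at 11.13, 10.84 and 12.23, with transgenic differences of -0.27 and -0.29. Ccnd2, cyclin D2, was at 10.16, 9.74 and 9.14.

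Inhibitors and feedback regulators held more higher than lower members. Dact1, a protein that binds Dishevelled, was at 6.54, 8.14 and 6.09, higher by 1.60 or 3.04-fold, from a wild type value under the median level over genes. Znrf3, a ubiquitin ligase that removes Wnt receptors, was at 9.60, 9.95 and 9.18. Tle3, a Groucho co-repressor, was higher by 0.25 and its relative Tle4 differed by -0.25. Axin1 differed by 0.22, as did Ctnnbip1, an inhibitor that binds β-catenin. Of the 32 measured, 17 were higher and 2 lower (53.1% and 6.25%, against 24.8% and 22.3% of all genes). Of the higher ones 1 was beyond 2-fold, and the list's median was 0.058. No member of 21 receptors and co-receptors was beyond 1.5-fold, and 12 of the 21 were identical, with Ror1, a Wnt5a receptor, the farthest from 0 (0.39). None of 34 genes of β-catenin turnover and its nuclear partners was beyond 1.5-fold: 13 were higher and 12 lower, and Siah1a, a ubiquitin ligase, was the farthest from 0 (-0.47). Among 24 cadherin and catenin genes, Jup, the β-catenin relative plakoglobin, was at 11.06, 11.54 and 7.12, and the median was 0.0062.

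Stage by stage, the genes of double-positive thymocytes were mostly slightly above wild type. Of 28, 19 were higher and 7 lower (67.9% and 25%, against 24.8% and 22.3% of all genes). None was beyond 1.5-fold, and the median was 0.044. Of the 4776 genes highest in level, 35.0% were higher and 41.7% lower. Ets2, a transcription factor, was at 12.27 and 12.74, and Cd4, the co-receptor, at 12.87 and 13.29. Arpp21 was lower (11.92 and 11.54), as was Ephb6, a kinase-dead ephrin receptor (10.18 and 9.82).

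Genes of single-positive maturation and egress were on the lower side. S1pr1, the receptor by which mature thymocytes leave, was at 8.55, 7.73 and 8.30. Ccr7, the chemokine receptor that draws them to the medulla, was at 10.08, 9.32 and 9.08. Gimap3, a GTPase of T cell survival, was at 7.92, 7.12 and 6.45. All 3 were lower on the transgenic array, with differences from -0.81 to -0.76. Of 31 measured, 25 were lower and 6 higher (80.6% and 19.4%, against 22.3% and 24.8% of all genes). By 1.5-fold 8 were lower (25.8%, against 0.67% of all genes), and the median was -0.32. Centring left 25 lower, 7 of them by 1.5-fold, with a median of -0.24. Slfn1, Ms4a6b, Tnfrsf4, Cd53 and Itgae were the others of the 8. The 1 higher by 1.5-fold was Ccr4, a chemokine receptor of cells that have just passed positive selection (10.41 and 11.00). In RNA of a mixed suspension, fewer cells of a type and less RNA per cell cannot be told apart.

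Regulatory T cell genes overlap with these. Of 16, 9 were lower (56.25%, against 22.3% of all genes) and none higher, and the median was -0.29. Those lower by 1.5-fold were the 4 genes Nrp1, Ikzf2, Tnfrsf4 and Itgae (25%, against 0.67% of all genes), and 3 genes were with the arrays centred. The other 7, among them Ctla4, an inhibitory receptor at 7.28, were identical on both arrays. Among 15 memory-like and innate-like genes Cd44 was the 1 beyond 1.5-fold. Among 18 early progenitor genes it was again the only such gene. Kit, the stem cell factor receptor, differed by -0.07.

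Genes of the earlier DN3 stage and of Notch were lower in part. Dtx1, a Notch-induced ubiquitin ligase, was at 8.79, 7.99 and 11.82, Gfra1 at 8.91, 8.13 and 12.22, and Notch1 at 11.02, 10.36 and 12.56. On each, the transgenic array was the lowest and the TCF-1-deficient array the highest of the 3. Il2ra, the interleukin-2 receptor α chain, was at 10.44, 9.88 and 12.50. Of 18 DN3 genes, 3 were lower by 1.5-fold (16.7%, against 0.67% of all genes). Centring left 2, and the median of -0.071 became 0.0083. Of 15 Notch-induced genes, 10 were lower and 3 higher (66.7% and 20%, against 22.3% and 24.8% of all genes). Their median was -0.26. Recombination and repair genes split 5 to 7 over 15, with Lig4, the DNA ligase that seals the joins, at 10.56 and 11.04. T-lineage transcription factors split 18 to 16 over 39, and Ikzf2 was the 1 beyond 1.5-fold.

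Genes of DNA replication and mitosis were mostly lower, by small amounts. Of 43 DNA replication genes, 36 were lower and 1 higher (83.7% and 2.33%). Of 34 genes of mitosis and the spindle, 29 were lower and 2 higher (85.3% and 5.88%). Of all genes 22.3% were lower and 24.8% higher, and of the 4776 highest in level 41.7% and 35.0%. No gene of either list was beyond 1.5-fold. With the arrays centred, 27 and 23 were lower and 16 and 11 higher, and the medians of -0.14 and -0.12 became -0.060 and -0.045. Those higher counts take in the identical genes, 6 and 3 here, and genes lower by less than 0.079. Pole, the catalytic subunit of DNA polymerase ε, was at 9.43, 8.90 and 9.82. Mki67, the proliferation marker Ki-67, was at 11.90, 11.52 and 11.61. Genes of cyclin D, its kinases and inhibitors split 11 higher to 13 lower over 25, with a median of -0.043 that became 0.035 with centring, and Cdk6 was the farthest from 0 (11.02 and 10.49).

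**Figure D5:**
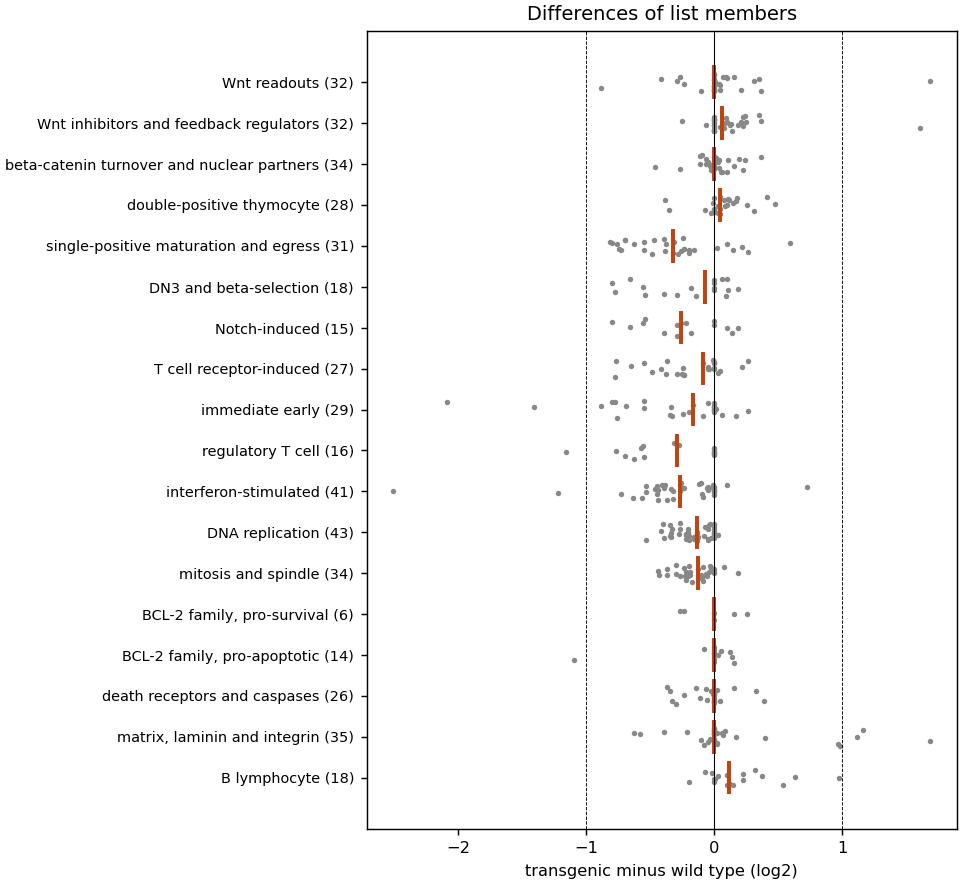
Difference, transgenic minus wild type (log2, x axis, 1 array each), of each measured member (grey points) of 18 gene lists, with the list's median (bar) and its number of members in brackets. The single-positive, regulatory T cell, interferon-stimulated and Notch medians lie between -0.32 and -0.26; the DN3 median of -0.071 turns to 0.0083 when the arrays are centred.

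In the lists of BCL-2 family, death receptor, caspase and p53 target genes, 1 gene was beyond 1.5-fold. Bmf, a BH3-only protein that binds and blocks pro-survival BCL-2 proteins, was at 9.40, 8.30 and 9.004, a transgenic difference of -1.09 (2.13-fold lower). It was the 1 of 14 pro-apoptotic family members beyond 1.5-fold, and Bcl2l11, which encodes BIM, was at 9.61 and 9.64. Among 6 pro-survival members none was beyond 1.5-fold. Bcl2l1, which encodes BCL-XL, was at 10.23, 10.48 and 8.58, Mcl1 at 10.92, 11.08 and 10.21, and Bcl2 at 10.61, 10.37 and 10.37. Death receptors and caspases (26 genes) held 12 lower and 5 higher ones, none by 1.5-fold. These are 46.2% and 19.2%, against 22.3% and 24.8% of all genes. Cycs, cytochrome c, was at 12.01 and 12.40, and Tnf at 7.24 and 6.87. Among 21 p53 targets, 6 were higher and 5 lower, and Phlda3 was the farthest from 0 (6.63 and 7.15). Bmf and Dusp1 were also the 2 of 20 glucocorticoid-induced genes lower by 1.5-fold. Cholesterol synthesis genes stayed within 0.21 of wild type over 19.

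Markers of other cells in the suspension were examined beside these groups. Of 18 B lymphocyte markers, 13 were higher and 3 lower (72.2% and 16.7%, against 24.8% and 22.3% of all genes). Their median was 0.11. Cd79a, a signalling chain of surface immunoglobulin, was at 6.99, 7.96 and 9.52, and Fcmr, the IgM Fc receptor, at 7.01, 7.64 and 8.87. Summed on the linear scale, the 18 markers came to 4998 on the wild type, 5643 on the transgenic and 7368 on the TCF-1-deficient array. Igkv10-96, a variable segment of the κ light chain, was at 7.31, 9.29 and 7.67, the second-highest difference of all genes (1.97). Ighm, the constant region of IgM, was identical on the 3 arrays, and of 10 plasma cell markers Jchain, the joining chain, was higher by 0.71 while Igha was lower. The part of such cells in the immunoglobulin results was not tested.

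Ctsl is also a marker of thymic epithelium. Of the other 18 epithelial markers 11 were identical on both arrays, 5 higher and 2 lower, within -0.44 and 0.29. Their sum was 2373 on the wild type and 2280 on the transgenic array. It is weighted to Cldn4, the highest of the 18 and the farthest below wild type (9.38 and 8.94). Foxn1, the transcription factor of thymic epithelium, and Psmb11, a proteasome subunit specific to its cortex, were identical on both arrays at 6.10 and 5.96, under the median level over genes. The part of epithelial cells in the difference of Ctsl was not tested. Without Itgam, 24 myeloid markers summed to 2463 and 2583, with 8 higher and 5 lower. Without Fn1, 17 fibroblast and endothelial markers summed to 6567 and 7356, with 7 higher and 2 lower and a median of 0. That sum is weighted to Vim, the highest of the 17 (12.06 and 12.33), and does not describe the others. Of 24 markers of γδ T, NK and innate lymphoid cells, Il12rb2 was higher and Cd7 (-0.61) lower at 1.5-fold. No member of 20 dendritic cell markers was beyond 1.5-fold. Of 18 listed erythroid and platelet markers 10 were compared, and none was beyond 1.5-fold. Of those outside the comparison, the 4 globin probe sets, which carry several symbols each, were higher by 1.003 to 1.06, and X-linked Alas2, an enzyme of heme synthesis, was at 7.14 and 8.25.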

How the data were processed

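RNA of 3 mouse thymocyte samples was measured on Affymetrix whole-transcript arrays, 1 per genotype, grouped by the genotype labels. The deposited table holds 1 value for each of 35556 probe sets and array. These deposited values, between 1.73 and 14.8, were read as log2 values because RMA, which ends in them, is named together with Partek in the submitters' processing notes (per the labels). The log base is not in the file header, and the background correction, the tool versions and the build are not stated there or in the labels. The deposited normalisation was kept. The wild type, transgenic and TCF-1-deficient arrays had medians of 6.73, 6.65 and 6.60 over probe sets, and 6.90, 6.90 and 6.95 over autosomal genes.

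Gene symbols came from the annotation table of the platform: 21789 have 1 symbol, and 12146 are unnamed here. Probe sets with several symbols entered no comparison, and 951 genes had several probe sets. Chromosomes and gene order came from the GRCm38.p6 gene table, from which no coordinate of a gene is given because the build of the array is not stated. The computed differences are 1 array minus another, with no test. Gene lists (46 in all, with their cell type markers) are described by counts and medians; all genes are the background. The members, the lists and the thresholds were chosen with earlier results of these data known.

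Genes were named by a rule: those beyond 2-fold other than olfactory receptors, microRNAs, small nucleolar RNAs, clone names and predicted genes, up to 6 members per list by size of difference, and 15 in any case, of which 14 had a named probe set. Other genes named (microRNAs, small RNAs, a clone, neighbours, genes near the threshold and list members beyond those 6) were chosen after their values were seen. The gene disrupted in the TCF-1-/- mice was not analysed here. Alternatives were thresholds of 1.5-fold and 3-fold, centring, loess (span 0.3), a filter on dim genes, other rules for several probe sets, all chromosomes, and leaving out identical values. Only the 2-fold rule was checked on simulated data, with 3-fold changes set well above the noise. Tools were Biopython 1.88, statsmodels 0.14.6, matplotlib 3.10.9, SciPy 1.17.1, pandas 2.3.3, NumPy 2.4.6 and Python 3.11.15.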

Additional observations from a re-analysis of the deposited data

Results flagged for a closer look

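The following values come from genes and probe sets outside the comparison of autosomal genes. The genes named here and the globin probe sets were above their level on the wild type array. On the Y chromosome, Uty was at 8.81 on the transgenic array against 4.20 on the wild type array, Eif2s3y, a translation factor subunit, at 8.43 against 3.73, and Kdm5d, a histone demethylase, at 7.90 against 5.32. Alas2, the X-linked first enzyme of heme synthesis in red cells, was at 8.25 on the transgenic, 7.14 on the wild type and 8.28 on the TCF-1-deficient one. The 4 globin probe sets, which carry several symbols each, were all higher on the transgenic array, by 1.003 to 1.06. Their highest value there was 13.5, against 12.5 on the wild type array. None of the 10 autosomal erythroid and platelet markers with 1 symbol was beyond 1.5-fold.

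Of 4 probe sets for κ light chain segments with several symbols, 2 were higher by 2-fold. The highest was at 10.8 on the transgenic array, 7.93 on the wild type array and 8.50 without TCF-1. Among the unnamed probe sets, 55 were higher and 949 lower by 2-fold on the transgenic array. The block of 6617 described above holds 39 of the 55 and 878 of the 949. Many of the other lower ones carry the same values under different identifiers, 10.78 on the wild type and 6.68 on the transgenic array. These counts are therefore not of separate transcripts.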

How the results depend on the processing

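The rule of size set the counts: at 3-fold, 8 genes were higher and 6 lower, and at 1.5-fold 93 and 128, against 26 and 18 at 2-fold. Under the other settings the 2-fold counts ranged from 24 to 33 higher and from 15 to 20 lower, each within 1.5 times the value reported. With the arrays centred on their medians over all probe sets, 83 genes were lower by 1.5-fold, against 128, and 131 were higher, against 93. Centring also left 7 microRNA genes lower by 1.5-fold, against 12. This setting and the loess and dim-gene settings at 1.5-fold were added after seeing the data. Centring took Chl1 to -0.96, Ifi208 to -0.97 and 1700109H08Rik to -0.999, inside 2-fold, and the other 47 of 50 genes checked stayed on their side. It turned the medians of 4 of 46 lists, to 0.0083 for DN3, 0.035 for cyclin D, 0.076 for class I MHC and 0.074 for amino acid transporters. The mean in place of the median gave 0.024 for class I MHC and -0.0067 for thymocyte markers, in each case of the other sign. Leaving out identical values moved 10 list medians by at least 0.1, and the dim-gene filter moved 6. The cause of these movements was not tested beyond the fewer genes that the last 2 settings hold. No paired analysis was possible because each genotype has 1 array, and no array could be left out. Signal over background is not in the deposited values, so a value under the median level over genes may have little room to be lower.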
